A study of Mus musculus with 2 samples.

Results

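The replication-dependent histone genes supply the histone proteins that package newly copied DNA. They were taken as all genes in both count tables whose symbol starts with Hist1h, Hist2h, Hist3h or Hist4h, which gave 66 of the 21745 genes shared by the tables. By the histone that the symbol names, 6 genes belong to the linker histone H1, 18 to H2A, 18 to H2B, 11 to H3 and 13 to H4. In the cells described here they held 127661 unique molecular identifier (UMI) counts, and 65 of the 66 had at least 50 UMIs. Hist1h1t, a testis linker histone, had 8 UMIs and is given no ratio. In the GENCODE vM21 annotation of GRCm38, 55 members lie on chromosome 13, 8 on chromosome 3, 2 on chromosome 11 and 1 on chromosome 6. Of the 66, Hist1h2al is annotated as a processed pseudogene and the rest as protein-coding. Many have near copies among the GENCODE genes with such symbols, a set that also holds genes outside the 66. With another gene of that set 60 members shared at least 1 run of 50 bases, and 30 shared more than 50% of their runs of 50 bases. Counts of single members are therefore uncertain, and sums over a family are used for the main statements.

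DNA is wrapped around an octamer built from H2A, H2B, H3 and H4, and H1 binds the linker between octamers. Most replication-dependent histone mRNAs end in a short stem-loop in place of a poly(A) tail. The stem-loop is bound by the protein Slbp, and these mRNAs are made in S phase and degraded when DNA synthesis stops. A smaller share of histone transcripts runs past the stem-loop and carries a poly(A) tail, and Drop-seq primes reverse transcription on poly(A), so the levels below are those of the RNA that this priming captured. A UMI count stands for 1 captured molecule, and levels are given as CPM, the usual depth-scaled unit, relative to all UMIs of the same cells. Because capture can differ between members, levels are compared between cells and not between genes as abundances.

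Drop-seq, a droplet method for single-cell RNA, was run on hearts of male C57BL6/J wild type mice aged 8 to 10 weeks. Hearts were collected at day 14 after the left anterior descending artery had been tied off (MI, 1 heart) or after the same surgery without tightening of the suture (sham, 4 hearts pooled). The protocol text also describes fixation and embedding of hearts, and how cells were separated for Drop-seq is not stated in the labels. Each group was 1 library, so no difference below has a replicate check and no p-value was computed. All intervals are exact 95% intervals of counting error only. The MI library had 8555 barcodes and 33275336 UMIs and the sham library 6337 barcodes and 11307405 UMIs, with medians of 2466 and 1424 UMIs per barcode, and 5 barcodes occurred in both.

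Cells were gated by marker genes, with at least 2 markers of a class and more than of any other of 11 marker lists. This gave 3581 MI and 1518 sham macrophages, 3424 and 1916 fibroblasts, 502 and 2363 endothelial cells, and 196 and 59 lymphoid cells. In each gate, library and set the class's own markers had the highest summed level of the 11 lists, and the median cell had from 3 to 7 of them. The endothelial gate of the MI library also held a summed fibroblast marker level of 4749 CPM in cells with and 3018 CPM in cells without cell cycle marks, against 720 and 838 CPM in sham, while its own markers summed to 5518 and 6125 CPM. In the sham endothelial gate the mural markers summed to 1257 CPM in cells with and 1536 CPM in cells without the marks, against 176 and 165 CPM in MI. Cells with at least 1 UMI of Mki67 or Top2a, 2 genes used by dividing cells, are written Mki67/Top2a+ and the others Mki67/Top2a-. These 2 genes made the split and are not reported. The Mki67/Top2a+ share was 19.2% of MI and 8.30% of sham macrophages, 27.0% and 1.67% of fibroblasts, 18.3% and 6.98% of endothelial cells, and 16.3% and 8.47% of lymphoid cells. A deeper cell is more likely to show such a UMI, and with every cell thinned to 500 UMIs before it was called the shares were 10.2% and 4.81%, 10.3% and 0.835%, 5.78% and 4.44%, and 6.63% and 5.08%. The sham Mki67/Top2a+ sets of fibroblasts and lymphoid cells held only 32 and 5 cells. A doublet caller marked 5 of these 32 fibroblasts (15.6%). In the 32 cells macrophage and endothelial markers summed to 769 and 716 CPM, against 162 and 315 CPM in the other sham fibroblasts.

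The stem-loop that defines these mRNAs was searched in the GENCODE transcripts by its consensus on the transcript strand, with T for U, and was found in 40 of the 66 members. The stretch has 16 bases and occurred in 5 spellings. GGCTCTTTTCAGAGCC was found in 24 members of H1, H2A, H2B and H3, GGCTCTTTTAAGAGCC in 6 members of H1, H2B and H3, and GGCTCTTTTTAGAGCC in Hist2h2ac. The H4 matches had 2 spellings of their own, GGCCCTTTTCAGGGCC in 7 members and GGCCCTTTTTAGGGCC in 2. The annotated transcripts of the other members do not hold these letters, which for 14 members follows from an annotation that ends at the stop codon or gives no coding sequence. The stem-loops of 6 members to which the results below return are shown with the 5 bases on each side, stem-loop in capitals, so that the near identity of the element across families can be seen.
Hist1h2ao: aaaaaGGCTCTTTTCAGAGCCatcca
Hist1h2ac: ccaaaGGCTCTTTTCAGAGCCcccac
Hist1h1c: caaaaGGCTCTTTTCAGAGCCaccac
Hist1h2bk: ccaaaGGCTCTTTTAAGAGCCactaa
Hist1h3c: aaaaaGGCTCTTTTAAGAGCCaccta
Hist1h4c: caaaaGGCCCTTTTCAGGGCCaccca

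Histone RNA was higher in Mki67/Top2a+ than in Mki67/Top2a- cells of every class in both libraries. Summed over the 66 genes it was 11481 (11327 to 11636) CPM in MI Mki67/Top2a+ macrophages and 1346 (1316 to 1377) CPM in the other MI macrophages. In sham macrophages the values were 11357 (10963 to 11762) and 1562 (1510.0 to 1616) CPM. In fibroblasts they were 7019.7 and 1032 CPM in MI and 3754 and 1063 CPM in sham. Every Mki67/Top2a+ set lay above every Mki67/Top2a- set of the same class. In endothelial cells the sums were 8707 and 1022 CPM in MI and 14295 and 1906 CPM in sham. In lymphoid cells they were 11858 and 2078 CPM in MI and 32394 and 3646 CPM in sham, the last pair from 5 and 54 cells.

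On the log2 scale the ratio of Mki67/Top2a+ over Mki67/Top2a- cells was 3.09 (95% interval 3.05 to 3.13) in MI macrophages and 2.86 (95% interval 2.79 to 2.93) in sham macrophages. It was 2.77 in MI fibroblasts, 3.09 in MI and 2.91 in sham endothelial cells, and 2.51 in MI lymphoid cells. The smallest ratio was that of sham fibroblasts, 1.82 (95% interval 1.64 to 2.00), and without the 1 cell of most histone UMIs in each of the 2 sets it was 1.16. The Mki67/Top2a+ cells had more UMIs, with medians of 2258.5 against 1675 in MI macrophages and 6540 against 4603 in MI fibroblasts. With every cell thinned to 500 UMIs before it was called, the ratio was 3.22 in MI macrophages, 2.39 in MI fibroblasts and 3.22 in sham endothelial cells.

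**Figure D1:**
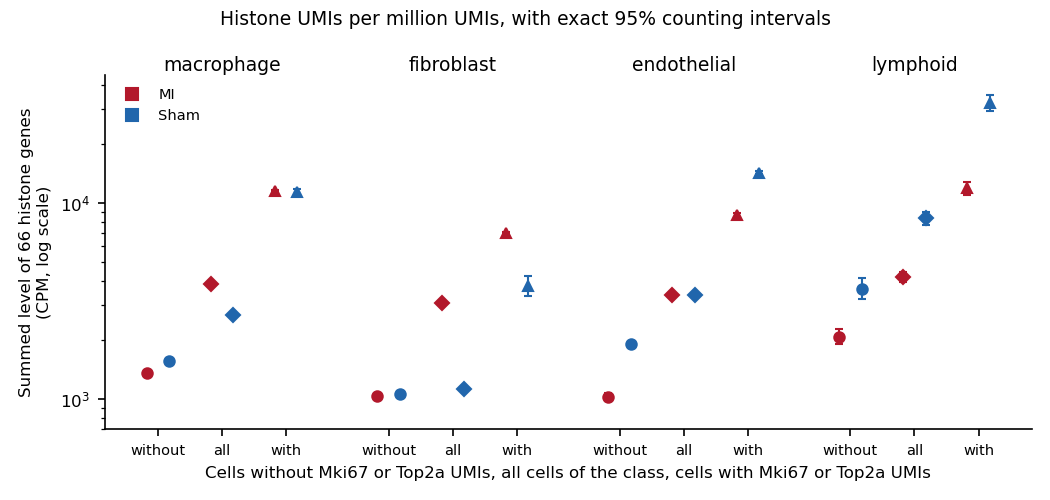
Summed level of the 66 histone genes in CPM on a log axis, for cells without Mki67 or Top2a UMIs (circles), all cells of a class (diamonds) and cells with such UMIs (triangles), red for MI and blue for sham, with exact 95% counting intervals. In each class the triangles lie above the circles in both libraries; in MI macrophages they stand at 11481 and 1346 CPM.

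The histone UMIs were concentrated in few cells. In MI Mki67/Top2a+ macrophages the median cell gave 0.194% of its UMIs to histones and the highest cell 10.4%, while 111 of 688 cells had none. The 35 cells that make up the top 5% held 41.8% of the histone UMIs of that set. At least 1% of UMIs came from histones in 25.4% of MI Mki67/Top2a+ macrophages and in 0.518% of the Mki67/Top2a- ones. The same shares were 19.9% and 0.240% in MI fibroblasts, 30.2% and 1.58% in sham macrophages and 43.6% and 1.87% in sham endothelial cells. In Mki67/Top2a- MI macrophages the median cell gave 0.0838%. In sham endothelial cells the medians were 0.613% and 0.105%. Since UMIs of 1 cell are not independent, the counting intervals are narrower than the spread between cells would give.

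The cells were also split by a second mark of the cell cycle. They were marked by at least 2 of 32 S phase genes with a UMI, a list that includes Pcna, Dut, Slbp and the Mcm helicase genes. MI macrophages with both marks had a histone level of 16132 (15906 to 16360.3) CPM, and Mki67/Top2a+ cells without the S phase mark 2907 (2778 to 3041) CPM. MI macrophages with the S phase mark alone had 1541 (1478 to 1606) CPM and those with neither 1278 (1243 to 1313) CPM. The G2 and M genes differed in the same direction between the first 2 sets, with a summed level of 6506 against 2835 CPM. The 374 doubly marked cells were 10.4% of MI macrophages and held 67.3% of the class's histone UMIs. Their median depth was 2849 UMIs, against 1845 in Mki67/Top2a+ cells without the S phase mark, and the part of depth in that difference was not tested.

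The order was the same in MI fibroblasts, with 7548 (7481 to 7616) CPM in doubly marked cells, 1482 (1387 to 1582) CPM with Mki67 or Top2a alone, 1059 (1038 to 1080.2) CPM with the S phase mark alone and 971 (941 to 1002) CPM with neither. There the 749 doubly marked cells held 76.4% of the histone UMIs. In sham endothelial cells the 118 doubly marked cells stood at 16162 (15804 to 16526) CPM and the 47 with Mki67 or Top2a alone at 3649 (3252 to 4081) CPM. In MI endothelial cells the 23 cells with Mki67 or Top2a alone, at 1029 (808 to 1292) CPM, had an interval that overlapped that of the 260 with neither mark, at 979 (909 to 1053) CPM. In sham macrophages the cells with the S phase mark alone were below those with neither mark, at 1328 (1216 to 1446) against 1615 (1556 to 1675) CPM. In lymphoid cells the same 2 sets stood at 2826 (2367 to 3347) and 1890.0 (1699 to 2097) CPM in MI, and in the other order in sham, at 1589.9 (1065 to 2283) CPM from 10 cells and 4349.6 (3808 to 4947) CPM from 44.

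**Figure D2:**
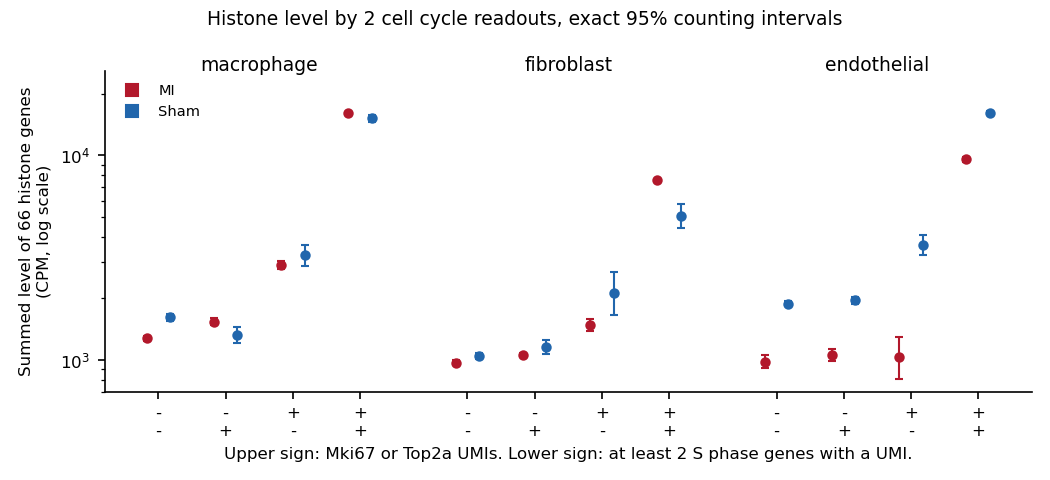
Summed histone level in CPM on a log axis by Mki67 or Top2a UMIs (upper sign) and by at least 2 S phase genes with a UMI (lower sign), red for MI and blue for sham, with exact 95% counting intervals. The doubly positive sets are the highest in all 3 classes, at 16132 CPM in MI and 15164 CPM in sham macrophages.

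The families did not share the difference equally. H2A made up 36.9% of the histone UMIs of MI Mki67/Top2a- macrophages and 68.6% of those of Mki67/Top2a+ macrophages. In MI fibroblasts the H2A share was 36.2% and 75.6%, and in sham endothelial cells 27.7% and 70.4%. The shares of H1 and H4 were lower in Mki67/Top2a+ cells of every class and library, and that of H2B in all but MI lymphoid cells, where it was 15.1% without and 18.3% with the marks. In MI fibroblasts H2B made up 43.1% and 12.6%, and in sham endothelial cells H4 made up 17.5% and 6.66%. H3 stayed a small share, 2.90% and 3.85% in MI macrophages. No cell type lacks histones, so a level of RNA free in the droplets could not be read from one.

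**Figure D3:**
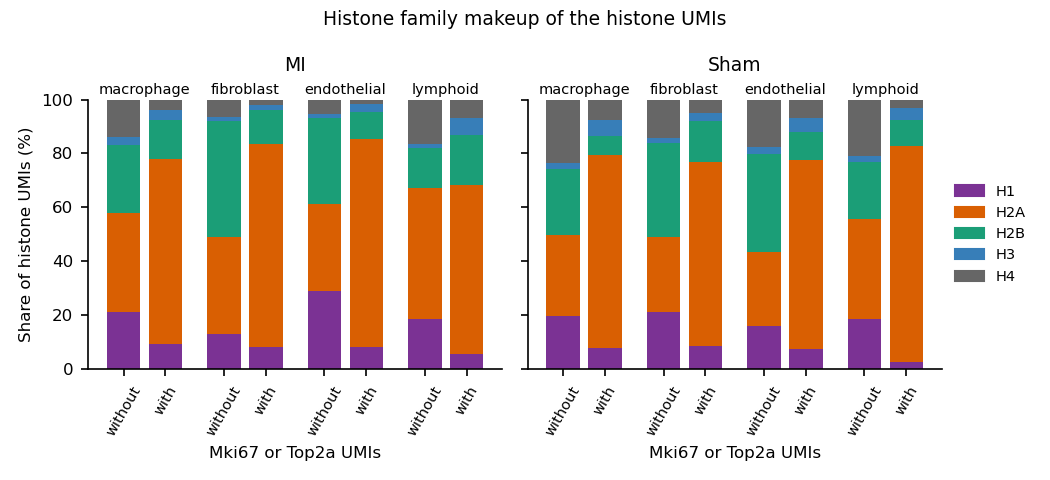
Share of histone UMIs (%) that each family held in cells without and with Mki67 or Top2a UMIs, for each class of the MI and sham libraries; the colours of a bar sum to all histone UMIs. H2A takes the largest part of every bar with Mki67 or Top2a UMIs, from 62.9% in MI lymphoid to 80.2% in sham lymphoid cells.

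Single members were counted as higher when their CPM was at least 2-fold higher and they had at least 20 UMIs over the 2 sets. In MI macrophages 58 of the 64 measured members were higher in Mki67/Top2a+ cells and 1 was lower, against 5.68% and 2.96% of all 11062 genes. The median member had a log2 ratio of 3.03, and the median of all genes was 0.00. In MI fibroblasts 54 of 63 were higher and none lower, with 4.45% of all genes higher and 3.46% lower, and in MI endothelial cells 40 of 46 were higher and none lower, with 5.08% and 5.19% of all genes. In sham macrophages 52 of 59 were higher and 1 lower (7.51% of all genes higher and 9.62% lower), and in sham endothelial cells 57 of 64 were higher and none lower (6.39% and 8.69%). The lymphoid gates measured 22 members in MI, of which 17 were higher and 1 lower (7.41% and 10.9%), and 14 in sham (11.2% of all genes higher and 13.1% lower). In sham fibroblasts 23 of 48 were higher and none lower (12.3% and 6.93%), with 32 Mki67/Top2a+ cells behind them. A member low in Mki67/Top2a- cells can pass this minimum only by being high in the others, so these counts are a description. With the minimum of 20 UMIs set in the Mki67/Top2a- cells alone, a choice made after seeing the data, 48 of 54 members were higher in MI macrophages (3.94% of all genes), 48 of 57 in MI fibroblasts (3.22%), 18 of 21 in MI endothelial cells (2.09%) and 3 of 6 in MI lymphoid cells (3.39%). In sham the counts were 42 of 49 in macrophages (5.57%), 22 of 47 in fibroblasts (11.6%) and 48 of 54 in endothelial cells (4.9%), and no member had 20 UMIs in the Mki67/Top2a- lymphoid cells.

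**Figure D4:**
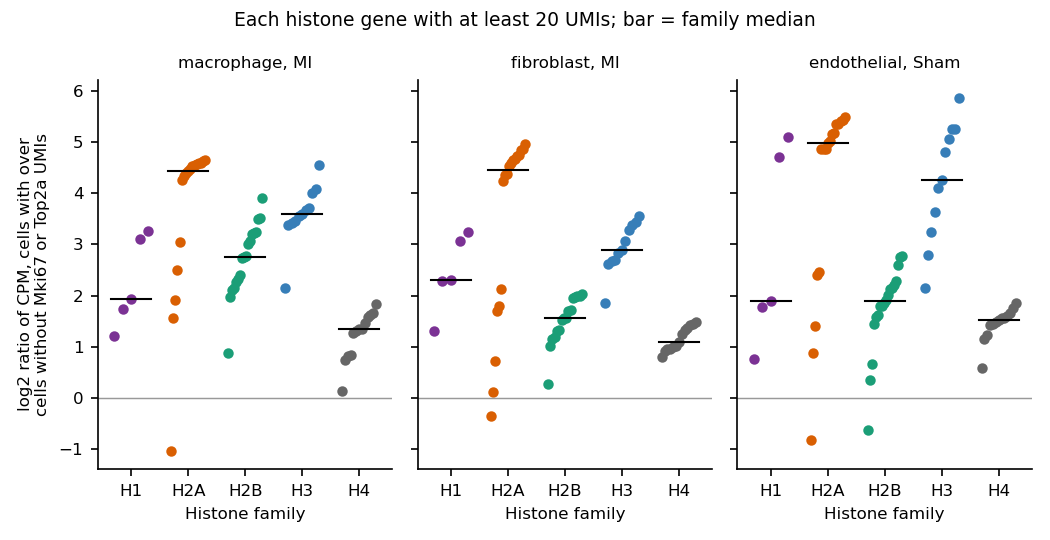
log2 ratio of CPM in cells with over cells without Mki67 or Top2a UMIs for each histone gene with at least 20 UMIs, by family, in MI macrophages, MI fibroblasts and sham endothelial cells; the black bar is the family median. Most H2A points form a narrow group near the family median of 4.44 in MI macrophages with a few far below it, and the H4 points have the lowest family median in each panel, 1.34 in MI macrophages.

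H2A pairs with H2B in the octamer, and its family had the largest sums in Mki67/Top2a+ cells. The H2A sum was 7871 CPM in MI Mki67/Top2a+ and 497 CPM in Mki67/Top2a- macrophages, a log2 ratio of 3.99 (95% interval 3.93 to 4.04). In sham macrophages it was 8123 and 470.4 CPM with a ratio of 4.11. The ratio was 3.83 in MI fibroblasts, 4.35 in MI and 4.25 in sham endothelial cells, and from 2.89 to 4.26 in lymphoid cells. The most abundant member was Hist1h2ao (chr13:21810465-21810944, plus strand, GRCm38). Its CPM in MI Mki67/Top2a+ and Mki67/Top2a- cells was 1315 and 54.7 in macrophages, 912 and 29.2 in fibroblasts, and 1172 and 31.2 in endothelial cells. In sham the same pairs were 1033 and 35.6 in macrophages, 332 and 15.8 in fibroblasts, and 1403 and 34.6 in endothelial cells. The first value of each pair was far above the second, with log2 ratios from 4.39 in sham fibroblasts to 5.34 in sham endothelial cells.

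Hist1h2ap (chr13:21833026-21833507, minus strand) shared 93.1% of its runs of 50 bases with other annotated histone genes of such symbols and followed Hist1h2ao closely. Over all cells of a class its CPM was 366 in MI and 155 in sham macrophages, 328 and 19.4 in fibroblasts, 352 and 193 in endothelial cells, and 349 and 654 in lymphoid cells. Per cell, the counts of Hist1h2ao and Hist1h2ap had a Pearson correlation of 0.987 over 1706 MI cells with a UMI of either, a description of near-identical genes, and were equal in 23.0% of those cells. The log2 ratio of Hist1h2ap was 4.59 in MI macrophages, 4.86 in MI fibroblasts and 5.42 in sham endothelial cells.

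The H2A genes Hist1h2ag, Hist1h2ad and Hist1h2ah lie in the large cluster on chromosome 13. Hist1h2ag (chr13:22042460-22042944) had all-cell CPM of 219 in MI and 101 in sham macrophages, 192 and 15.2 in fibroblasts, 229 and 137 in endothelial cells, and 179 and 526 in lymphoid cells. Its level in MI Mki67/Top2a+ macrophages was 776 CPM against 33.6 CPM in the others, and its log2 ratio there was 4.53. Hist1h2ad (chr13:23574381-23574952) had all-cell CPM of 148 in MI and 95.9 in sham macrophages, 136 and 14.8 in fibroblasts, 155 and 115 in endothelial cells, and 159 and 386 in lymphoid cells. Its Mki67/Top2a+ level was above its Mki67/Top2a- level in every class of both libraries, with log2 ratios of 4.65 in MI macrophages and 4.67 in MI fibroblasts. Hist1h2ah (chr13:22035164-22035568) had all-cell CPM of 138 in MI and 72.1 in sham macrophages, 116 and 13.0 in fibroblasts, 133 and 106 in endothelial cells, and 96.3 and 327 in lymphoid cells. The sham pairs were 522 and 14.8 in macrophages, 146 and 9.92 in fibroblasts, and 732 and 20.2 in endothelial cells. All 3 were lowest in sham fibroblasts, the class and library with the lowest share of Mki67/Top2a+ cells.

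Hist1h2ai and Hist1h2an are annotated in GENCODE with the coding sequence alone. Hist1h2ai (chr13:21716422-21716814) had all-cell CPM of 128 in MI and 79.9 in sham macrophages, 117 and 10.9 in fibroblasts, 130.3 and 99.6 in endothelial cells, and 143 and 456 in lymphoid cells. Its level in MI Mki67/Top2a+ macrophages was 451 CPM against 20.2 CPM in the others, and its log2 ratio there was 4.48. Hist1h2an (chr13:21786826-21787218) had all-cell CPM of 124 in MI and 72.5 in sham macrophages, 109.7 and 12.4 in fibroblasts, 128 and 82.2 in endothelial cells, and 156 and 292 in lymphoid cells. Its Mki67/Top2a+ level was above its Mki67/Top2a- level in every class of both libraries, with log2 ratios of 4.57 in MI macrophages and 4.65 in MI fibroblasts. The log2 ratios of Hist1h2ai and Hist1h2an were 5.02 and 5.41 in sham endothelial cells, close to that of Hist1h2ao, 5.34.

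Hist1h2ac (chr13:23681467-23683948, minus strand) has a long annotated transcript, of 2482 bases, and 11.6% of its runs of 50 bases occur in another annotated histone gene of such a symbol. Its CPM in MI Mki67/Top2a+ and Mki67/Top2a- cells was 588 and 25.2 in macrophages, 418 and 22.1 in fibroblasts, and 522 and 23.9 in endothelial cells. In sham it was 645 and 24.0 in macrophages, 159 and 13.0 in fibroblasts, and 798 and 27.5 in endothelial cells. The MI log2 ratios were 4.54 in macrophages, 4.24 in fibroblasts and 4.45 in endothelial cells. In lymphoid cells it was 509 and 67.7 CPM in MI, a ratio of 2.91.

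A few H2A members stood apart. Hist2h2aa2 (chromosome 3) was the most abundant of them, with all-cell CPM of 112 in MI and 87.7 in sham macrophages, 95.2 and 67.0 in fibroblasts, 84.7 and 101 in endothelial cells, and 183 and 257 in lymphoid cells. Its levels in Mki67/Top2a+ and Mki67/Top2a- cells were 250.5 and 66.2 CPM in MI macrophages and 128 and 78.1 CPM in MI fibroblasts, ratios of 1.92 and 0.72. All of its runs of 50 bases are shared with another annotated histone gene of such a symbol, which need not be one of the 66, so its counts are among the least certain. Hist1h2al, the annotated pseudogene, had a ratio of 1.56 in MI macrophages and 0.12 in MI fibroblasts. Hist3h2a (chromosome 11) was the 1 member at least 2-fold lower in Mki67/Top2a+ macrophages, at 23.1 against 47.6 CPM in MI (log2 ratio -1.04 (95% interval -1.54 to -0.57)) and 21.8 against 57.3 CPM in sham (-1.40 (95% interval -2.87 to -0.23)). In sham endothelial cells its ratio was -0.82, and in MI endothelial cells 0.26 (95% interval -0.60 to 1.08). Hist3h2a overlaps Trim17 on the same strand, so reads of Trim17 could be counted with it. The remaining H2A genes Hist1h2af, Hist1h2ae, Hist1h2ab and Hist1h2ak had ratios between 4.26 and 4.63 in MI macrophages, Hist2h2ac 2.50 and Hist2h2ab 3.04. Hist1h2aa, a testis H2A, had 50 UMIs in all and a ratio of 2.12 in MI fibroblasts.

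H2B differed less than H2A between the sets and was led by 1 gene. The H2B sum was 1671 and 339 CPM in MI macrophages, 885 and 445 CPM in MI fibroblasts, and 1509 and 695 CPM in sham endothelial cells. The log2 ratios were 2.30, 0.99 and 1.12. Hist1h2bc (chr13:23684199-23692908, plus strand), with 9841 UMIs, was the third most abundant member of all and differed by less than 2-fold between the sets in macrophages, fibroblasts and endothelial cells. In MI its Mki67/Top2a+ and Mki67/Top2a- CPM was 234 and 128 in macrophages, 306 and 251 in fibroblasts, and 187 and 152 in endothelial cells. In sham it was 109 and 152 in macrophages, 226 and 220.2 in fibroblasts, and 243 and 374 in endothelial cells. In sham endothelial cells it was lower in Mki67/Top2a+ cells, with a log2 ratio of -0.62 (95% interval -0.89 to -0.37), and in sham macrophages the interval of -0.48 (95% interval -1.07 to 0.06) held 0. In MI lymphoid cells it was 169.6 and 42.3 CPM, a ratio of 2.00 (95% interval 0.63 to 3.40) from 11 and 10 UMIs. Over all lymphoid cells Hist1h2bc had 69.7 CPM in MI and 175 CPM in sham. MI doubly marked macrophages held 256 CPM of Hist1h2bc and those with neither mark 117 CPM.

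The other 17 H2B genes had fewer UMIs, from 149 for Hist3h2ba to 1572 for Hist1h2bq. In MI macrophages all 17 were at least 2-fold higher in Mki67/Top2a+ cells, against 5.68% of all genes. Their log2 ratios ran from 1.97 for Hist2h2bb to 3.91 for Hist2h2be. Of the 17, 15 had at least 20 UMIs in the Mki67/Top2a- cells alone, and 3.94% of all genes were higher under that minimum. The others passed only with their UMIs in Mki67/Top2a+ cells. Hist1h2bq was 159 and 23.2 CPM in MI macrophages, and Hist1h2bk 125 and 10.9 CPM. In MI fibroblasts the ratio was 1.56 for Hist1h2bq, 1.97 for Hist1h2bk and 2.02 for Hist1h2bj, the highest of the 16 H2B genes that passed the minimum of 20 UMIs. Hist1h2ba, a testis H2B, was 26.6 and 16.8 CPM in sham endothelial cells, a ratio of 0.66 (95% interval -0.25 to 1.48). Hist1h2be overlaps Hist1h1e on the same strand, so reads of the 2 genes cannot be told apart there, and its ratio in MI macrophages was 2.16.

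H1 binds between octamers, and its members split into those with a small and those with a large difference. Hist1h1e (chr13:23620629-23622558, minus strand) was the most abundant. Its CPM in MI Mki67/Top2a+ and Mki67/Top2a- cells was 385 and 115 in macrophages, 229 and 47.1 in fibroblasts, and 353 and 154 in endothelial cells. In sham it was 279 and 117 in macrophages, 106 and 88.4 in fibroblasts, and 369 and 108 in endothelial cells. Hist1h1c (chr13:23738808-23740367, plus strand) had CPM of 205 and 89.2 in macrophages, 135 and 54.6 in fibroblasts, and 114 and 82.1 in endothelial cells in MI. In sham they were 232 and 97.0 in macrophages, 92.9 and 83.7 in fibroblasts, and 222 and 129.8 in endothelial cells. The log2 ratios in MI macrophages were 1.74 for Hist1h1e, 1.20 for Hist1h1c and 1.93 for Hist1h1d. Hist1h1b and Hist1h1a had larger ones, 3.10 and 3.27, from 238 and 27.7 CPM and from 65.6 and 6.79 CPM. In sham endothelial cells the same split was seen, with 5.11 for Hist1h1b and 4.71 for Hist1h1a against 0.77 for Hist1h1c. Of the 5 H1 genes measured there, 4 had at least 20 UMIs in the Mki67/Top2a- cells, so not all would pass the minimum without the Mki67/Top2a+ cells. In MI lymphoid cells Hist1h1c was lower in Mki67/Top2a+ cells, 30.8 against 144 CPM, a ratio of -2.22 (95% interval -5.32 to -0.26) from 2 and 34 UMIs.

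H3 forms a tetramer with H4 at the centre of the octamer. Its 11 genes held only 3367 UMIs. Summed over the family, the log2 ratio was 2.59 or more in every class and library. The H3 sum was 442 and 39.0 CPM in MI macrophages, 123 and 16.9 CPM in MI fibroblasts, and 754 and 47.5 CPM in sham endothelial cells. The ratios were 3.50 (95% interval 3.29 to 3.73), 2.86 and 3.99. Hist1h3c, the most abundant, was 71.0 and 3.04 CPM in MI macrophages and 112 and 2.92 CPM in sham endothelial cells, and had no UMI in any of the 1916 sham fibroblasts. The lowest ratio in MI macrophages was that of Hist1h3e, 2.16, and the others lay between 3.39 for Hist1h3d and 4.55 for Hist1h3c. Only 3 of the 11 H3 genes had at least 20 UMIs in the Mki67/Top2a- MI macrophages, and 3 in the Mki67/Top2a- sham endothelial cells. The rest passed the minimum only with their UMIs in Mki67/Top2a+ cells, so their ratios are a description.

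H4 had small differences. Its sum was 431 and 187 CPM in MI macrophages, 841 and 366 CPM in sham macrophages, 147 and 64.9 CPM in MI fibroblasts, and 952 and 334 CPM in sham endothelial cells. The log2 ratios were 1.20 (95% interval 1.07 to 1.34), 1.20, 1.18 and 1.51. H4 had the lowest ratio of the 5 families in MI macrophages, while H2B was lower in sham macrophages (1.10), MI fibroblasts and sham endothelial cells. Hist1h4m was the most abundant H4 gene, at 72.0 and 29.0 CPM in MI macrophages. Hist1h4c was 44.1 and 26.5 CPM there and 11.5 and 6.09 CPM in MI fibroblasts. Of its runs of 50 bases, 19.6% occur in another annotated histone gene of such a symbol. The 13 H4 ratios in MI macrophages ran from 0.13 for Hist4h4 to 1.84 for Hist1h4j. Of the 13, 9 were at least 2-fold higher, against 5.68% of all genes. All 13 had at least 20 UMIs in the Mki67/Top2a- cells alone, and 3.94% of all genes were higher under that minimum.

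Many H2A and H2B genes are neighbours that are read in opposite directions from starts at most 500 bases apart. In GENCODE 12 such pairs were found among the members, and in each of the 3 comparisons below both genes passed the UMI minimum in 11 of them. The H2A gene had the larger ratio in 10 of 11 pairs in MI macrophages, the exception being Hist2h2ac with Hist2h2be, and in 11 of 11 in MI fibroblasts and in sham endothelial cells. In MI fibroblasts the pair under the minimum was Hist2h2ac with Hist2h2be, at 1.71 and 2.07. The medians over the pairs were 4.54 for H2A and 3.02 for H2B in MI macrophages, 4.67 and 1.56 in MI fibroblasts, and 5.18 and 2.01 in sham endothelial cells. The widest gap was in Hist1h2ac and Hist1h2bc, whose starts lie 251 bases apart. Their ratios were 4.54 and 0.87 in MI macrophages, 4.24 and 0.28 in MI fibroblasts, and 4.86 and -0.62 in sham endothelial cells.

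The 250 bases before the annotated start are shown for 3 members that differ in behaviour, from RefSeq: the H2A gene Hist1h2ac, whose window spans the space shared with Hist1h2bc, the H1 gene Hist1h1c and the H4 gene Hist1h4c. Capitals mark 3 motifs searched on both strands, the TATA box as TATAAA, the CCAAT box as CCAAT and the octamer as ATTTGCAT.
Hist1h2ac, GRCm38.p6 chr13:23683960-23684209 (minus strand): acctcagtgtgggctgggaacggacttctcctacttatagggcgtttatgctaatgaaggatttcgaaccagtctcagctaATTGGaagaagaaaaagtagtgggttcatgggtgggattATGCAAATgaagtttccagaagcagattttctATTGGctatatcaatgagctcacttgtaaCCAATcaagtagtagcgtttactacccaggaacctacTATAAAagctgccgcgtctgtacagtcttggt
Hist1h1c, GRCm38.p6 chr13:23738557-23738806 (plus strand): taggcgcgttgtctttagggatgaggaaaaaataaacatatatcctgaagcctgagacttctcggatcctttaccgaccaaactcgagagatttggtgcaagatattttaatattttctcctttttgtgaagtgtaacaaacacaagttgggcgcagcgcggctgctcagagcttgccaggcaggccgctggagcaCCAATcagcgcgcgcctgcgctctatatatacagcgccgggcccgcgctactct
Hist1h4c, GRCm38.p6 chr13:23698459-23698708 (minus strand): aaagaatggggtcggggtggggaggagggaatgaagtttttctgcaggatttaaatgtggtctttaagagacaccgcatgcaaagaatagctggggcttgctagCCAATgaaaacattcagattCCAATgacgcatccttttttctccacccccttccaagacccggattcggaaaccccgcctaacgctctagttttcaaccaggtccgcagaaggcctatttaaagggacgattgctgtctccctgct
The Hist1h2ac stretch holds 1 TATA box, 3 CCAAT boxes and 1 octamer, that of Hist1h1c 1 CCAAT box, and that of Hist1h4c 2 CCAAT boxes. RefSeq promoters of 300 bases were matched for 59 of the 66 members. The octamer was in 7 of 16 H2A and 7 of 16 H2B promoters and in no H1, H3 or H4 promoter, against 1.74% of 32851 listed promoters. The starts of the paired H2A and H2B genes lie 176 to 306 bases apart. The windows of a pair can therefore overlap and 1 motif can be counted for both genes, so the H2A and H2B counts are not separate. CCAAT was in 50 of the 59 and in 37.4% of the listed ones. Among the 50 were all 6 H1, 16 H2A, 16 H2B and 9 H3 promoters but only 3 of 12 H4 promoters. TATAAA was in 34 of the 59 and in 13.6% of the listed ones.

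The annotated end of the transcript was also set beside the ratios. GENCODE gives at least 150 bases after the stop codon for 27 members, fewer for 25, and none, or no coding sequence, for 14. The median log2 ratio in MI macrophages was 2.13 over the 26 measured members with a long end and 3.49 over the 25 with a short end, and in MI fibroblasts 1.43 over 24 and 2.88 over 25. Families are unequally spread over these groups, and within H2B, H3 and H4 the gap was smaller in MI macrophages and fibroblasts. In sham macrophages and endothelial cells it was smaller within H2B and H4 but not within H3. The long-ended and short-ended H3 medians were 3.32 and 5.40 in sham macrophages, against 1.26 and 2.23 over all families. In sham endothelial cells they were 3.67 and 4.80, against 1.71 and 2.75. In H1, with 1 short-ended gene, they were 1.74 and 3.27 in MI macrophages and 2.28 and 3.07 in MI fibroblasts. In H2A the long-ended Hist1h2ac and Hist1h2ae had 4.54 and 4.34 in MI macrophages, against a median of 4.44 over the 9 short-ended H2A genes, while the long-ended Hist3h2a had -1.04. In H4 the medians were 1.34 over 7 long-ended and 1.31 over 5 short-ended genes. In H2B they were 2.73 over 9 and 3.21 over 5 genes, with Hist1h2bc lowest at 0.87. These are descriptions of annotated ends, since the ends of the captured RNA were not measured. Members entered the medians by their UMIs over both sets. In the Mki67/Top2a- cells alone 54 of the 64 measured in MI macrophages reached the UMI minimum, and 57 of the 63 in MI fibroblasts. Of the 11 H3 genes only 3 and 7 did. Some members thus entered only through their UMIs in Mki67/Top2a+ cells, and the medians were not repeated without them.

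Between the libraries, the summed histone level of all cells was higher in MI in macrophages and fibroblasts, close in endothelial cells and lower in lymphoid cells. It was 3876 (3831 to 3921) CPM in MI and 2669 (2605 to 2735) CPM in sham macrophages, a log2 ratio of 0.54 (95% interval 0.50 to 0.58). In fibroblasts it was 3072 (3048 to 3096) and 1124 (1088 to 1161) CPM, a ratio of 1.45 (95% interval 1.40 to 1.50). In endothelial cells 3367 (3293 to 3442) and 3402 (3349 to 3455) CPM differed by -0.01 (95% interval -0.05 to 0.02). In lymphoid cells 4184 (3956 to 4421) and 8353 (7752 to 8989) CPM gave -0.998 (95% interval -1.13 to -0.86). With MI over sham ratios of all genes scaled to their median, which was -0.14 in macrophages, -0.23 in fibroblasts, -0.04 in endothelial and -0.11 in lymphoid cells, the histone ratios became 0.67, 1.68, 0.03 and -0.89. Of single members, 10 of 64 were at least 2-fold higher in MI macrophages and 5 lower, with 8.37% and 13.3% of all genes. In fibroblasts 32 of 65 were higher and 4 lower, with 13.4% and 20.2% of all genes, and in endothelial cells none of 64 was higher and 19 lower, with 10.8% and 15%. In lymphoid cells none of the 31 measured was higher and 14 were lower, with 10% and 9.5%. Where members were measured in part, some passed the minimum through 1 library alone, so these counts and those of the next paragraph are a description.

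Within the marked and unmarked sets the differences between libraries were smaller in macrophages and fibroblasts, and larger in endothelial cells. In Mki67/Top2a+ macrophages the ratio of MI over sham was 0.02 (95% interval -0.04 to 0.07) and in Mki67/Top2a- macrophages -0.21 (95% interval -0.27 to -0.16). In Mki67/Top2a+ fibroblasts it was 0.90 (95% interval 0.73 to 1.08), with 32 sham cells, and in Mki67/Top2a- fibroblasts -0.04 (95% interval -0.10 to 0.01). The share of Mki67/Top2a+ fibroblasts was 27.0% in MI and 1.67% in sham, at median depths of 5057.5 and 1508.5 UMIs, and 10.3% and 0.835% with cells thinned to 500 UMIs. The Mki67/Top2a+ cells held 77.8% of the histone UMIs of MI fibroblasts and 7.63% of those of sham fibroblasts. Of single members, 13 of 64 were at least 2-fold higher and 10 lower in Mki67/Top2a+ MI macrophages (10.8% and 11.5% of all genes), and 3 of 62 higher and 13 lower in Mki67/Top2a- ones (7.9% and 13.6%). In fibroblasts the counts were 16 and 7 of 61 (8.45% and 23.9%) with the marks and 6 and 12 of 58 (12.4% and 19.7%) without. In endothelial cells none was higher, and 27 of 60 (14.9%) and 29 of 55 (15.3%) were lower, with 12.6% and 10.4% of all genes higher. In lymphoid cells none was higher, with 12.7% and 10.6% of all genes, and 13 of 15 (13.1%) and 6 of 14 (10.6%) were lower. Among H2A genes of all fibroblasts, Hist1h2ao was 330.0 and 23.0 CPM and Hist1h2ac 157 and 16.4 CPM, ratios of 3.84 (95% interval 3.51 to 4.19) and 3.26. In the same cells Hist1h2bc was 269.9 and 220.3 CPM and Hist1h1c 82.2 and 83.9 CPM, ratios of 0.29 and -0.03. In endothelial cells both sets were lower in MI, with log2 ratios of -0.72 and -0.90, and the marked share was 18.3% against 6.98%, or 5.78% against 4.44% with thinned cells. The MI endothelial gate is also the one with the higher fibroblast marker level, and the sham endothelial gate the one with the higher mural marker level. The part of either in these values was not tested.

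Summed over all cells, the H4 family was lower in MI in every class. Its sum over all cells was 248 CPM in MI and 420.1 CPM in sham macrophages, 92.7 and 154 CPM in fibroblasts, 84.3 and 409 CPM in endothelial cells, and 442 and 806 CPM in lymphoid cells. The log2 ratios of MI over sham were -0.76, -0.73, -2.28 and -0.87. Over all endothelial cells H2B and H3 were lower in MI too, with -0.68 and -0.62, and over all lymphoid cells so was every family, from -1.17 for H2A to -0.63 for H3. In Mki67/Top2a- cells the ratios were -0.97 (95% interval -1.10 to -0.83) in macrophages, -1.24 (95% interval -1.40 to -1.08) in fibroblasts and -2.58 (95% interval -2.91 to -2.28) in endothelial cells. Relative to the median of all genes these were -0.82, -0.998 and -2.53, and in the 32 sham Mki67/Top2a+ fibroblasts the direction turned from -0.34 to 0.07. In Mki67/Top2a- cells no H4 gene was at least 2-fold higher in MI in any of these 3 classes, and 9 of 13, 9 of 13 and 13 of 13 were at least 2-fold lower, with 13.6%, 19.7% and 15.3% of all genes lower. Hist1h4m was 29.0 and 61.0 CPM in MI and sham Mki67/Top2a- macrophages, 9.20 and 17.7 CPM in fibroblasts and 10.4 and 40.2 CPM in endothelial cells. Hist1h4c was 26.5 and 41.6, 6.09 and 18.3, and 9.19 and 34.3 CPM. Each group is 1 library, so a shift shared by its classes cannot be told apart from a property of that library. Depth and the number of hearts differ with the group, and their part was not tested.

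H2B differed between the libraries in Mki67/Top2a+ macrophages, with 1671 CPM in MI and 816 CPM in sham, a log2 ratio of 1.03 (95% interval 0.84 to 1.24). There 12 of 18 H2B genes were at least 2-fold higher in MI and 1 was lower, with 10.8% and 11.5% of all genes. Hist1h2bc was 234 and 109 CPM in these cells, a ratio of 1.10 (95% interval 0.57 to 1.69), and Hist1h2bk 125 and 58.0 CPM. The lower one, Hist3h2ba, was 11.3 and 32.6 CPM from 21 and 9 UMIs. H2A in the same cells was 7871 and 8123 CPM, a ratio of -0.05 (95% interval -0.11 to 0.02), and its interval held 0. In Mki67/Top2a- macrophages H2B was 339 and 381 CPM. In Mki67/Top2a- endothelial cells Hist1h2bc was 152 CPM in MI and 374 CPM in sham, a ratio of -1.30 (95% interval -1.50 to -1.11).

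**Figure D5:**
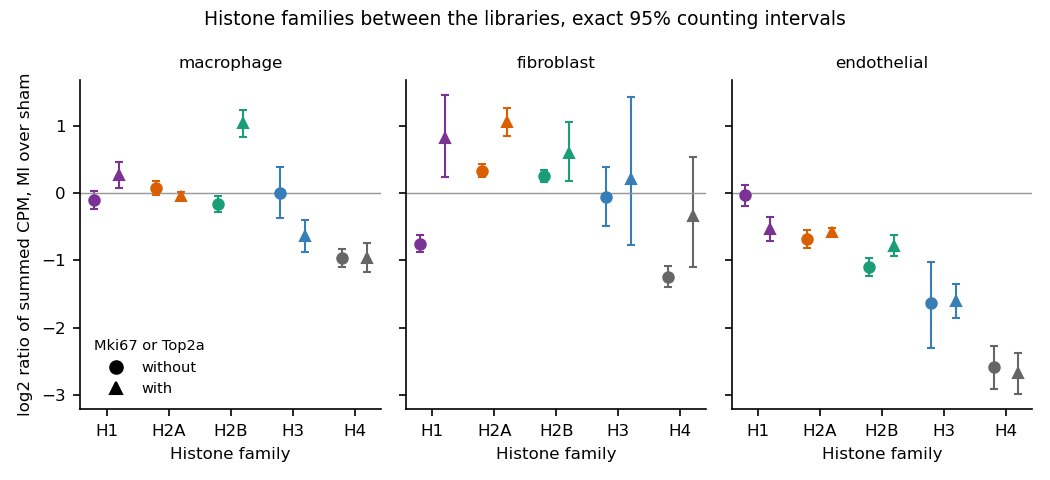
log2 ratio of summed CPM of MI over sham for each histone family in cells without (circles) and with (triangles) Mki67 or Top2a UMIs, in macrophages, fibroblasts and endothelial cells, with exact 95% counting intervals. H4 lies below 0 in every panel, down to -2.67 in endothelial cells with Mki67 or Top2a UMIs, and the interval of the fibroblast triangle holds 0.

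Lymphoid cells were few and mixed. In MI the 27 T or NK cells among the Mki67/Top2a+ lymphoid cells held 761 of the 769 histone UMIs, at 13258 CPM, and the 5 B cells 8, at 1074 CPM. In sham 4 T or NK cells held all 454 UMIs, and 1 of the 5 cells held 188 of them. Of the Mki67/Top2a- cells, B cells stood at 3498 CPM in MI and 3916 CPM in sham, and T or NK cells at 1513 and 3606 CPM. In MI 92 of the 236 UMIs of the B cells came from 1 cell. The H2A gene Hist1h2ag was 601 and 63.5 CPM in MI Mki67/Top2a+ and Mki67/Top2a- lymphoid cells.

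Shares of cells with a histone UMI were taken after thinning every cell to 500 UMIs, which left out no cell. The share was 43.8% (42.2 to 45.5%) in MI and 40.3% (37.8 to 42.8%) in sham macrophages, 40.0% (38.4 to 41.7%) and 30.8% (28.8 to 33.0%) in fibroblasts, 39.2% (34.9 to 43.7%) and 46.4% (44.4 to 48.4%) in endothelial cells, and 40.3% (33.4 to 47.5%) and 62.7% (49.1 to 75.0%) in lymphoid cells, with exact Clopper-Pearson intervals. Unthinned, the shares were 71.3% and 60.3% in macrophages, 85.3% and 53.0% in fibroblasts, 77.5% and 68.1% in endothelial cells, and 61.2% and 71.2% in lymphoid cells. In Mki67/Top2a+ cells the thinned share was 58.4% (54.6 to 62.1%) in MI and 57.1% (48.0 to 65.9%) in sham macrophages, 55.1% (51.9 to 58.4%) in MI fibroblasts and 75.2% (67.8 to 81.5%) in sham endothelial cells. A histone UMI was thus found in many Mki67/Top2a- cells too, at 40.4% (38.6 to 42.2%) of MI macrophages and 34.5% (32.6 to 36.4%) of MI fibroblasts.

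Other genes of histone biology were followed by lists. The histone variants listed as replication-independent differed less. Of those measured, 5 of 10 were at least 2-fold higher in MI Mki67/Top2a+ macrophages, 4 of 11 in MI fibroblasts and 5 of 10 in sham endothelial cells. The shares of all genes were 5.68%, 4.45% and 6.39%, and the medians of the list were 0.83, 0.66 and 0.72. H3f3b, a gene of the replacement variant of H3 and the most abundant variant, was 1810.5 and 1600.0 CPM in MI Mki67/Top2a+ and Mki67/Top2a- macrophages, a log2 ratio of 0.18. H3f3a, its sister gene, had -0.17. H2afz, which encodes the variant H2A.Z, was 722 and 291 CPM, a ratio of 1.31 (95% interval 1.20 to 1.41). Of the 19 genes of histone mRNA processing, 18 were measured in MI macrophages and 1 was higher, a share near that of all genes (5.68%), with a median of 0.20. Casp8ap2, a component of histone locus bodies, had 0.58, Zcchc11, a uridylating enzyme, 0.19, and Fip1l1, a polyadenylation factor, 0.01.

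Slbp, the stem-loop binding protein, was 92.5 and 50.6 CPM in MI Mki67/Top2a+ and Mki67/Top2a- macrophages, a ratio of 0.87 (95% interval 0.59 to 1.15), and 218 and 61.9 CPM in sham macrophages, 1.81 (95% interval 1.35 to 2.26). In MI fibroblasts its ratio was 0.82 and in sham endothelial cells 1.85. Of the 18 histone chaperones and assembly factors, 6 were at least 2-fold higher in MI macrophages, 6 in MI fibroblasts and 8 of 17 in sham endothelial cells, against the same shares of all genes. The most abundant were Atrx, a chromatin remodeller, with 0.09 in MI macrophages, Nap1l1, an H2A and H2B chaperone, with 0.66, and Rbbp7, a histone-binding subunit, with 1.26. The S phase list, which shares Slbp, Mcm2 and Chaf1b with these lists, had 30 of 32 genes higher in MI macrophages (5.68% of all genes) at a median of 2.15, among them Pcna, the replication clamp, at 1.39 and Dut, a dUTPase, at 1.91. The G2 and M list had 25 of 25 higher there (5.68% of all genes) at a median of 4.51, with Hmgb2 at 2.62, Cenpe at 4.21 and Cenpf at 5.05. The H2A family sum, at 3.99, is a ratio of summed counts and is not the same measure as these 2 medians over single genes. The median over single H2A genes in MI macrophages was 4.44. The cells were split by cell cycle marks, so higher S phase, G2 and M genes follow from the split. Members of all the lists of other genes entered by their UMIs over both sets. Their counts were not repeated with the minimum in the Mki67/Top2a- cells alone, so they are a description.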

How the data were processed

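The deposited values are UMI counts per gene and cell barcode, whole numbers from Drop-seq, 1 table per library. Per the submitters' processing notes mm10 and Seurat were used; no label names the aligner or the handling of reads that fit several genes. Cells with at most 25% mitochondrial UMIs and at least 200 genes were kept and gated by marker lists. Raw counts were summed per library, class and set, and given as CPM with exact Poisson 95% intervals; ratios have exact conditional binomial intervals and shares exact Clopper-Pearson ones, for counting error only. A gene at 0 was bounded by 3 counts over its set. Genes with at least 20 UMIs over both sets and a 2-fold difference were counted as higher or lower. Doublets were kept; a caller marked 147 MI and 334 sham cells (1.74% and 5.30%), which were left out as an alternative. All members were accounted for, those with at least 50 UMIs by their values, the 12 most abundant in every class, and the 3 most abundant of each other list. The ratio computation was tested on simulated data. The members and lists were chosen with earlier results of these data known. Hist1h2aj, Hist2h2aa1, Hist2h3c1 and Hist3h2bb-ps were not analysed here, other than in the search for shared runs of 50 bases. Python 3.11.15, numpy 2.4.6, scipy 1.17.1, pandas 2.3.3, scanpy 1.11.5 and matplotlib 3.10.9 were used.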

Additional observations from a re-analysis of the deposited data

Results flagged for a closer look

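The log2 ratio of the summed histone level of MI over sham was 0.54 in macrophages and 1.45 in fibroblasts but -0.998 in lymphoid cells, which is the opposite direction. With 1 library per group the difference between classes was not tested.

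Histone RNA was also present in cells that no comparison used. MI cells in no gate held 3521 CPM and MI cells gated to another marker list 3854 CPM, against 2712 and 2472 CPM in sham.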

How the results depend on the processing

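No paired analysis was possible because each group is 1 library. Of the ratios whose interval left out 0, none changed sign under any alternative run, and 1 count of members moved by over 1.5 times: with the minimum of 20 UMIs set in the Mki67/Top2a- cells alone, chosen after seeing the data, 18 members in place of 40 were higher in MI Mki67/Top2a+ endothelial cells, since fewer were measured. For MI over sham, the mean over cells gave 0.35 in macrophages, 1.17 in fibroblasts and -0.47 in endothelial cells. Median-of-ratios scaling gave 0.83 in macrophages, 1.89 in fibroblasts and -0.75 in lymphoid cells, and leaving out barcodes with an N gave 0.65 in macrophages. Removing doublets gave -0.0727 in endothelial cells. The next 2 alternatives were also chosen after seeing the data. Leaving out the cell of most histone UMIs in each set gave -0.0694 in endothelial and -0.78 in lymphoid cells, and leaving out H4 gave 0.69, 1.62 and 0.13 in macrophages, fibroblasts and endothelial cells, so the endothelial value, near 0, changed sign.

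For Mki67/Top2a+ over Mki67/Top2a- cells, at least 2 UMIs of the marks gave 3.65, 3.12, 3.41 and 3.13 in MI macrophages, fibroblasts, endothelial and lymphoid cells and 3.47, 3.59, 3.09 and 3.51 in sham. S phase genes in place of the marks gave 2.44, 1.83 and 2.23 in the first 3 MI classes and 1.77, 0.45, 1.59 and 1.78 in sham. Calls after thinning gave 3.22, 2.39 and 3.45 in the first 3 MI classes, and 3.33, 3.22 and 2.58 in sham macrophages, endothelial and lymphoid cells. The mean over cells gave 2.80, 2.53 and 2.94 in the first 3 MI classes. Without barcodes with an N the ratio was 2.69 in MI fibroblasts and 2.71, 1.51, 2.83 and 4.13 in sham macrophages, fibroblasts, endothelial and lymphoid cells. A stricter gate gave 3.05 in MI lymphoid and 2.86 in sham endothelial cells, and removing doublets 2.10 in sham fibroblasts. Without the cell of most histone UMIs in each set, sham fibroblasts gave 1.16 and sham lymphoid cells 2.89. Unthinned, the share of cells with a histone UMI was 71.3%, 85.3%, 77.5% and 61.2% in MI and 60.3%, 53.0% and 68.1% in sham macrophages, fibroblasts and endothelial cells. The cause of these changes was not tested.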
